A study of Mus musculus with 20 samples.

Results

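The genes described here were lower in each of 8 libraries of mouse kidney tubule cells exposed to LPS and interferon gamma than in each of 8 libraries of untreated cells. The rule left out another 4 of the 20 libraries, in which most of these genes ran the other way by label, and with all 20 libraries as labelled 0 genes met it. There were 74 of them among the 55891 gene IDs of the count table, and 12221 of those IDs were expressed at the level the rule asks for. A member had a mean of at least 2 CPM (counts of the gene over all counts of its library, times 1000000) over 8 control libraries, its highest value among 8 stimulated libraries lay below its lowest control value, and its mean ratio, stimulated over control, was 0.6 or less. The rule also left out 8 genes by name, of which 2 (Oxtr and Pccb) met its thresholds. The members were thus chosen by the CPM of the 16 libraries that also give their sizes, and the difference between stimulated and control cells is described here without a test. Before the names were left out, 76 of the 12221 expressed genes (0.622%) met the rule. At any ratio, 2.23% of expressed genes were lower in every stimulated library and 2.96% were higher in every one.

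RNA was sequenced from primary renal tubular epithelial cells of mice of the strain B6.129-Ptprz1tm1Nmo, which carries a targeted allele of Ptprz1, a receptor-type protein tyrosine phosphatase. The 20 libraries form 4 groups of 5: KO cells (PTPRZ_KO) with LPS+IFNγ, KO controls, het cells (PTPRZ_het) with LPS+IFNγ, and het controls. Stimulated cells received LPS at 100 ng/mL and IFNγ at 10 ng/mL for 24 h, and controls were left untreated. All cells came from kidneys and were cultured in a serum-containing medium to which EGF, insulin, transferrin, selenite, prostaglandin E2 and the hormones hydrocortisone, epinephrine and triiodothyronine had been added. No group carries 2 intact Ptprz1 alleles by its label, so het cells are the comparator. Age and sex are not given in the labels. The labels name 10 animals and list animals 5 and 7 under both genotypes, so p-values between genotypes measure the spread between these libraries.

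Library totals were 12899528 to 20411411 counts. Ptprz1 itself stood at 0 to 0.454 CPM, highest in 2 libraries labelled KO, which is too low to check the genotype labels by. A list of 10 interferon-gamma response genes, which includes Nos2 and Gbp2, summed to 10003 to 22206 CPM in 8 stimulated libraries and to 96.1 to 145 CPM in 8 controls. In the other 4 libraries the list went against the label. It summed to 114 CPM in the library labelled KO LPS+IFNγ replicate 4 and to 3879 CPM in the one labelled KO control replicate 4, both from animal 8. It summed to 106 CPM in the library labelled het LPS+IFNγ replicate 5 and to 2072 CPM in the one labelled het control replicate 5, both from animal 4. The rule leaves these 4 libraries out, and 4 libraries a group remain. The sum of 12 epithelial markers, among them Epcam and keratins, was 444 to 1923 CPM in stimulated and 424 to 2412 CPM in control libraries. The sum of 16 proximal tubule markers was 26.0 to 285 CPM in stimulated and 43.3 to 603 CPM in control libraries. Markers of the loop of Henle to the collecting duct, 12 in all, summed to 6.24 to 10.9 CPM in stimulated libraries. In control libraries they summed to 1.80 to 13.6 CPM, and of these markers only Atp6v1b1 was at 0 in the 16 libraries. Smooth muscle and myofibroblast markers reached 10353 CPM in stimulated and 14504 CPM in control libraries, so the cultures did not hold epithelial transcripts alone.

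LPS is sensed by Toll-like receptor 4, which activates NF-κB, and interferon gamma acts through its own receptor and the transcription factors that it activates. In many cell types the pair raises chemokines, antigen presentation genes and inducible nitric oxide synthase, while other genes of the resting cell decline. Tubular epithelial cells reabsorb solutes, handle glutamine for ammonia production and keep a polarised cytoskeleton with strong cell contacts.

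The members came from many functions rather than 1 pathway, as assigned by hand after their names were seen. In the order followed here there were 8 genes of calcium, ion and vesicle handling and 5 of glutamine and glutamate, counting Nat8l, which acts on aspartate. Lipid metabolism held 7 genes and receptors and signalling 15. There were 13 genes of the cytoskeleton and adhesion, 13 of the nucleus, 7 of other proteins and 6 non-coding or unnamed genes. The mean ratio of a member ran from 0.0337 to 0.60 with a median of 0.477, against a median of 0.921 over all expressed genes. It was below 0.25 for 7 members, from 0.25 to below 0.5 for 38 and 0.5 or more for 29. The median ratio was lowest for calcium, ions and vesicles (0.380) and for the non-coding or unnamed genes (0.380) and highest for the nucleus (0.551). In bulk RNA fewer cells of a type and less RNA per cell cannot be told apart.

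**Figure D1:**
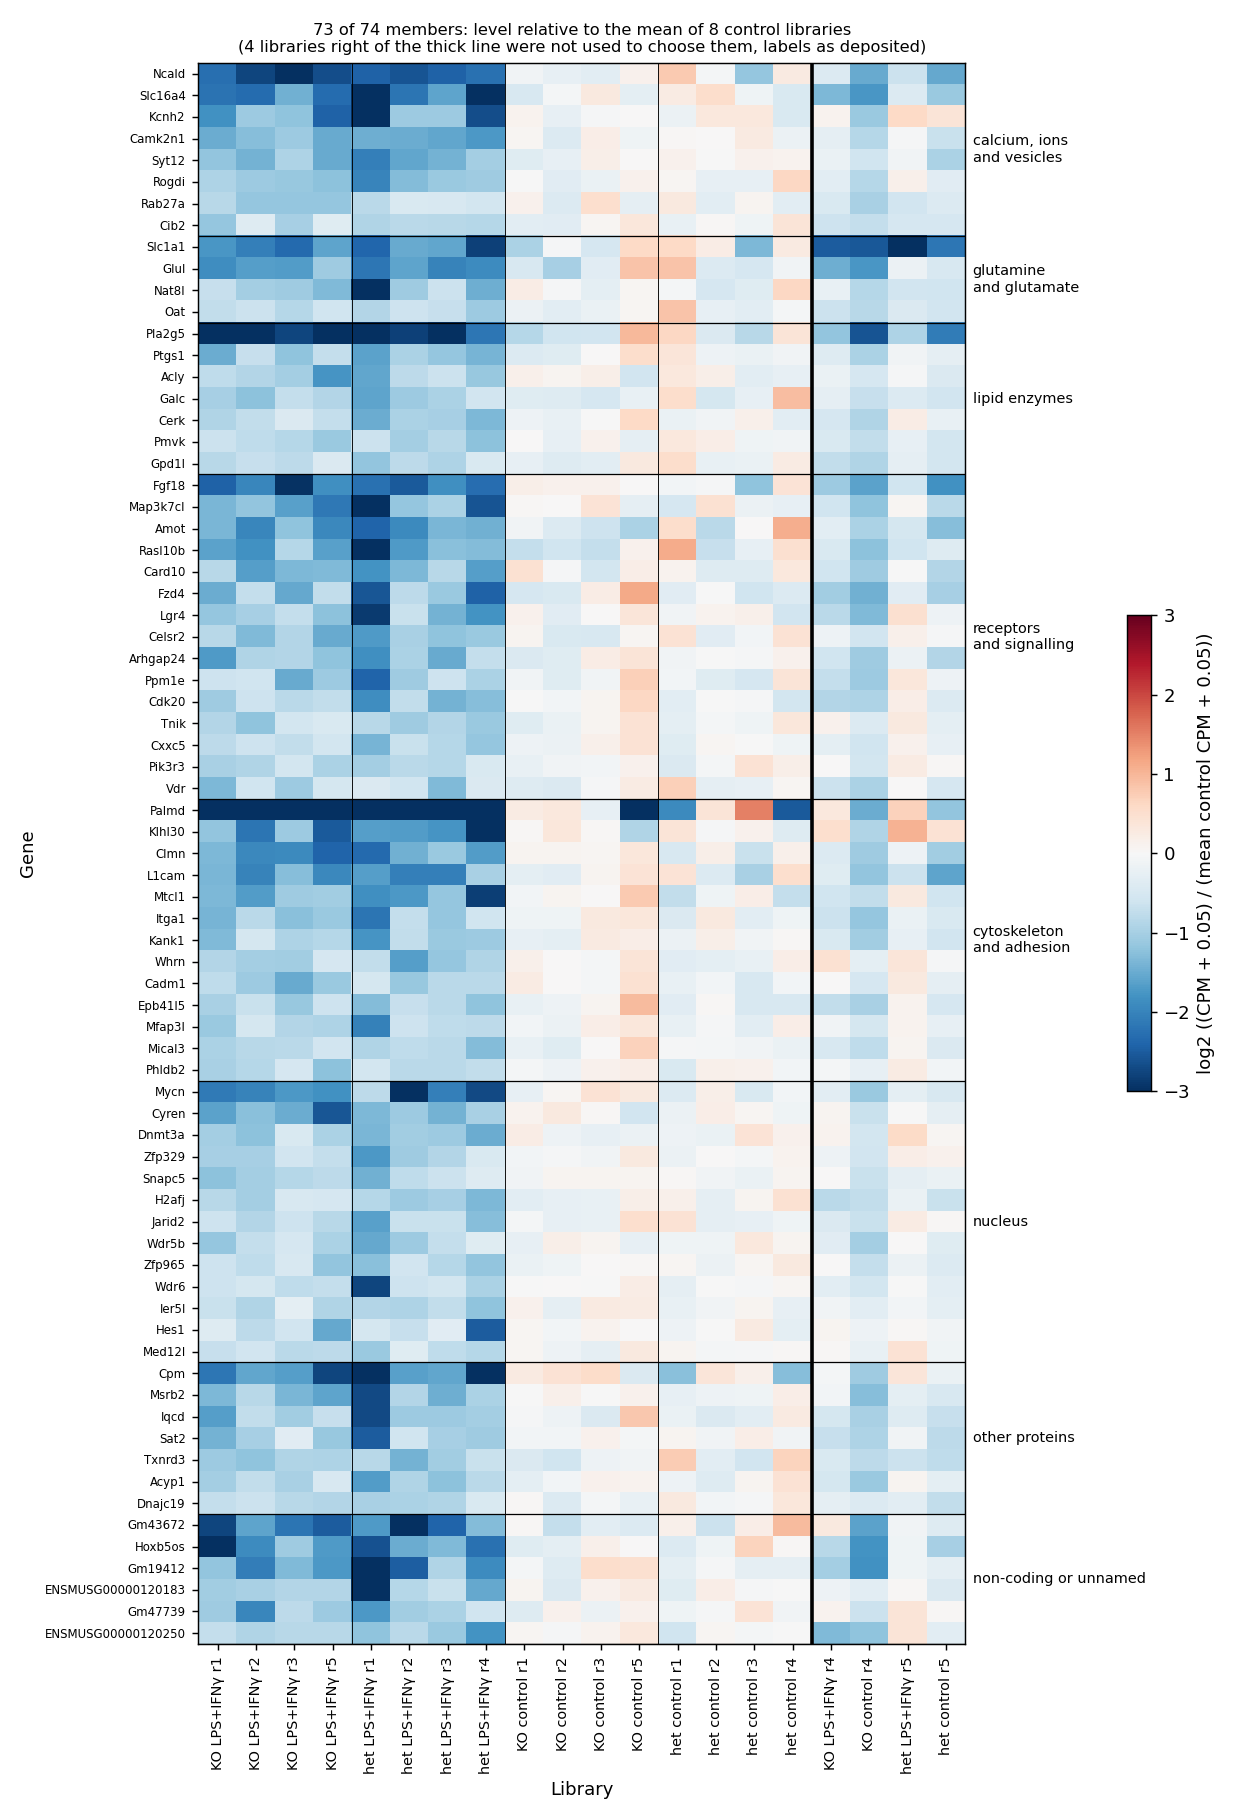
Level of 73 of the 74 members (rows, by role) in 20 libraries (columns), as the log2 ratio to the mean of the 8 controls, with colours ending at 3 in either direction. Blue is below the control mean: the 8 stimulated libraries are blue in all rows, by the rule, and right of the thick line the libraries labelled LPS+IFNγ are paler than those labelled control from the same animal in most rows.

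The separation between the states was narrow for many members. The lowest control value was 1.15 times the highest stimulated value in the median, from 1.00 for Vdr to 2.61 for Pla2g5. It was under 1.1 times for 30 members and 1.5 times or more for 9. Leaving aside predicted and unnamed genes, those just inside the ratio limit were Vdr (0.595), Gpd1l (0.597) and Med12l (0.60), and those just outside it were Rab4a (0.604), Chd9 (0.608) and Slc26a11 (0.609). Those just inside the expression limit were Rab27a (2.24 CPM), Palmd (2.53 CPM) and Hoxb5os (2.70 CPM), and those just outside it were Adamts15 (1.75 CPM), Fam19a2 (1.33 CPM) and Ggnbp1 (1.27 CPM). Gm43672, which has a predicted name, was nearer to the expression limit, at 2.17 CPM. With library sizes scaled by TMM 52 genes met the rule, 48 of them among the 74. With animals 5 and 7 left out 166 met it, 72 of them among the 74. That setting separates fewer libraries and drops KO control replicate 2 and het control replicate 3, the lowest control for 15 and 13 members. It also drops KO and het LPS+IFNγ replicate 3, the highest stimulated library for 15 and 9 members. The part of each in the higher count was not tested.

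Upstream sequence was found in RefSeq (GRCm38.p6) for 52 of the 74 members, with 65 start sites between them. The 250 bases before each start were searched on both strands for TTCNNNGAA, the palindrome of interferon gamma-activated sites (GAS), for the core of the interferon-stimulated response element (ISRE), and for 6 other short motifs. The GAS letters were found in 1.54% of member promoters, against 5.79% of the promoters of expressed genes. The response element core was found in 1.54% and 2.38% of them. CACGTG (E-box) was found in 7.69% and 8.28%, GGGCGG (SP1) in 60.0% and 58.8%, and CCAAT in 38.5% and 35.4%. TGANTCA (AP-1) was found in 1.54% and 4.29%, TGACGTCA (CRE) in 1.54% and 2.61%, and TATAAA in 7.69% and 6.25%. Matches to different motifs may overlap. A match is a description of letters and no evidence of binding. The single GAS match was at Amot and the single response element core at Glul. Those 2 promoters are shown with those of Pla2g5, whose stimulated and control libraries lay farthest apart, and Mycn, the transcription factor gene with the lowest ratio. Each sequence is the 250 bases before the start on the gene's own strand, with every match to a searched motif in capitals. They lie at chrX:145487640-145487889 (minus strand), chr1:153899679-153899928 (plus), chr4:138863470-138863719 (minus) and chr12:12941837-12942086 (minus) of GRCm38.p6.
Amot: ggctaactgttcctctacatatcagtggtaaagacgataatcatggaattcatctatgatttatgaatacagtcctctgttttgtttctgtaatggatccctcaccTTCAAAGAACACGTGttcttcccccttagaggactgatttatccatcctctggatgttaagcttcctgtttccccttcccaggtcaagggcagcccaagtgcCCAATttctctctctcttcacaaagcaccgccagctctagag
Glul: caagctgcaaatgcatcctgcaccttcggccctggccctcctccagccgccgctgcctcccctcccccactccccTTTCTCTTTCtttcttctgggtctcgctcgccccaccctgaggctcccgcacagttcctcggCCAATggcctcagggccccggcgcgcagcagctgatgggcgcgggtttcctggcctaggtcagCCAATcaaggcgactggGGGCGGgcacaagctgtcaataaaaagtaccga
Pla2g5: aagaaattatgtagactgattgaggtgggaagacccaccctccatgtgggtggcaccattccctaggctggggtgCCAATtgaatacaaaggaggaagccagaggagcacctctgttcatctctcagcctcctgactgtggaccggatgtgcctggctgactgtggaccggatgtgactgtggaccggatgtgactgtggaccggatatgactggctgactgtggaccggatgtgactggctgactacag
Mycn: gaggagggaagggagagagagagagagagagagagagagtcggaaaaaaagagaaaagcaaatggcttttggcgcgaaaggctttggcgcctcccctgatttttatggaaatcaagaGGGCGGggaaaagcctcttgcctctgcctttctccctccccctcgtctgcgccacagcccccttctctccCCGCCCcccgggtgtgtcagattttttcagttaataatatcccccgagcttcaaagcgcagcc
In Amot the GAS letters TTCAAAGAA stand directly before an E-box, and in Glul the core reads TTTCTCTTTC on the gene's strand. The start shown for Pla2g5 holds only a CCAAT, and Mycn holds GGGCGG on either strand and neither interferon motif.

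Calcium, ion and vesicle genes held the marker Ncald. It encodes neurocalcin delta, a calcium-binding protein of the neuronal calcium sensor family, of which 3 listed genes were expressed. In KO cells Ncald stood at 6.03, 4.25, 3.27 and 4.58 CPM with LPS+IFNγ, against 27.1, 24.3, 23.3 and 31.6 CPM in controls. In het cells it stood at 5.38, 4.79, 5.33 and 6.08 CPM with LPS+IFNγ, against 50.0, 27.8, 13.0 and 35.1 CPM in controls. Every stimulated library lay close to the others while the het controls were widely spread, and the nearest control, het replicate 3, was 2.14 times the highest stimulated value. The edgeR log2 fold change was −2.48 ± 0.30 in KO and −2.40 ± 0.30 in het cells (SE, n = 4 libraries a group). The other expressed family members, Hpcal1 and Ncs1, had mean ratios of 1.49 and 0.819.

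Slc16a4, of the monocarboxylate transporter family, stood at 0.286 to 1.09 CPM in stimulated libraries (median 0.594) and at 2.15 to 4.4 CPM in controls (median 2.84). Kcnh2, a voltage-gated potassium channel known from the heart, stood at 0.172 to 2.26 CPM (median 1.70) with LPS+IFNγ and at 3.52 to 6.07 CPM (median 4.83) in controls. Of 27 expressed channel genes listed, Kcnh2 was the only member, and the median ratio of the list was 0.685. A mean ratio of 0.6 or less was found for 9 of the 27, against 7.09% of all expressed genes. Camk2n1, an inhibitor of calcium/calmodulin-dependent kinase II, had a ratio of 0.369 and the synaptotagmin Syt12 one of 0.391. Rogdi (0.435), Rab27a, a small GTPase of secretory vesicles (0.567), and Cib2, a calcium- and integrin-binding protein (0.587), completed the group. Camk2n1 and Pla2g5 were the only pair of members that were neighbours in the order of expressed genes.

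Glutamine and glutamate genes included Glul, which encodes glutamine synthetase, the enzyme that makes glutamine from glutamate and ammonia. Glul stood at 100, 118, 115 and 175 CPM in KO cells with LPS+IFNγ, against 262, 186, 289 and 661 CPM in KO controls. It stood at 81.4, 122, 92.2 and 99.9 CPM in het cells with LPS+IFNγ, against 669, 277, 258 and 340 CPM in het controls. The control values were drawn up by 1 library of each genotype, KO replicate 5 and het replicate 1, and the lowest control was 1.06 times the highest stimulated library. The log2 fold change of Glul was −1.37 ± 0.36 in KO and −1.82 ± 0.36 in het cells (SE, n = 4).

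Slc1a1, a glutamate transporter of the plasma membrane, stood at 0.462 to 1.20 CPM (median 0.905) with LPS+IFNγ and at 1.35 to 5.35 CPM (median 3.74) in controls. Nat8l, which makes N-acetylaspartate, had a ratio of 0.444. Oat, the mitochondrial ornithine aminotransferase that leads to glutamate, had a ratio of 0.590, with 117 to 166 CPM in stimulated and 200 to 450 CPM in control libraries. Oat is on a list of amino acid and one-carbon metabolism with 31 expressed genes, whose median ratio was 0.850. Per kilobase of exon the mean level of Glul was 34.0 CPM per kb with LPS+IFNγ and 111 CPM per kb in controls.

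Lipid enzymes spanned phospholipid, sphingolipid and sterol metabolism. Pla2g5, a secreted phospholipase A2, had 0 to 9 counts in a stimulated library and 26 to 91 in a control. In KO cells it stood at 0.112, 0.230, 0.381 and 0.0572 CPM with LPS+IFNγ, against 1.55, 1.88, 1.90 and 5.66 CPM in controls. In het cells it stood at 0.0572, 0.364, 0 and 0.594 CPM with LPS+IFNγ, against 4.46, 2.10, 1.58 and 3.75 CPM in controls. The states did not overlap and were farther apart than for any other member, on few counts. Acly, the ATP citrate lyase that supplies acetyl-CoA for lipid synthesis, was the member with the highest CPM in controls. It stood at 213 to 467 CPM (median 378) in stimulated libraries and at 488 to 913 CPM (median 794) in controls. The other lipid enzymes were Ptgs1, the constitutive cyclooxygenase (ratio 0.461), Galc, a lysosomal galactosylceramidase (0.509), Cerk, the ceramide kinase (0.530), Pmvk of the mevalonate pathway (0.543) and Gpd1l (0.597).

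Receptors and signalling genes began with Fgf18, a fibroblast growth factor. In KO cells it stood at 1.45, 2.01, 0.980 and 2.17 CPM with LPS+IFNγ, against 8.96, 8.72, 8.74 and 8.06 CPM in controls. In het cells it stood at 1.66, 1.35, 2.20 and 1.58 CPM with LPS+IFNγ, against 7.50, 7.80, 3.44 and 10.5 CPM in controls. The KO controls agreed closely, while het control replicate 3 was the lowest control for this gene as for Ncald. The log2 fold change was −2.32 ± 0.33 in KO and −1.96 ± 0.32 in het cells (SE, n = 4). Of 11 expressed FGF ligands and receptors Fgf18 was the only member, and the median ratio of that list was 0.534.

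Several members act in Wnt and planar polarity signalling. Lgr4, a receptor for R-spondins, stood at 43.6 to 200 CPM (median 139) in stimulated and at 214 to 412 CPM (median 333) in control libraries. Fzd4, a Wnt receptor, had a ratio of 0.412, and Celsr2, an atypical cadherin of planar polarity, one of 0.446. The kinase Tnik (0.553) and the zinc-finger protein gene Cxxc5 (0.564) also belong to Wnt signalling. Celsr2 was the only member among 24 expressed cadherins and protocadherins, with a list median of 0.677. A mean ratio of 0.6 or less was found for 6 of the 24, against 7.09% of all expressed genes.

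Amot encodes angiomotin, a junction protein that binds the Hippo pathway effector YAP. It stood at 71.9, 47.9, 80.5 and 48.6 CPM in KO cells with LPS+IFNγ, against 174, 139, 120 and 95.7 CPM in KO controls. It stood at 35.1, 49.7, 71.7 and 68.8 CPM in het cells with LPS+IFNγ, against 267, 106, 186 and 397 CPM in het controls. Here the het controls ranged more widely than the KO controls, with replicates 1 and 4 highest. The remaining signalling members were Map3k7cl (ratio 0.316), Rasl10b (0.328), the scaffold gene Card10 (0.404), the Rac-directed GTPase-activating protein gene Arhgap24 (0.448), the phosphatase gene Ppm1e (0.489), Cdk20 (0.494), Pik3r3, a regulatory subunit of PI3-kinase (0.574), and Vdr, the vitamin D receptor (0.595).

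Cytoskeleton and adhesion genes held the lowest ratio of all. Palmd, which encodes palmdelphin, had 0 to 4 counts in each stimulated library and 3 to 130 in a control. In KO cells it stood at 0.223, 0, 0.109 and 0.0572 CPM with LPS+IFNγ, against 2.99, 3.19, 2.13 and 0.233 CPM in controls. In het cells it stood at 0, 0.104, 0.122 and 0.0660 CPM with LPS+IFNγ, against 0.637, 3.34, 7.33 and 0.403 CPM in controls. The controls ranged over more than an order of magnitude, and KO control replicate 5 lay only 1.04 times above the highest stimulated library, so the separation of Palmd rests on 4 counts in KO LPS+IFNγ replicate 1 against 3 in that control, whose total was lower.

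Clmn, which encodes the actin-binding protein calmin, stood at 38.0 to 93.5 CPM (median 58.7) in stimulated and at 126 to 254 CPM (median 214) in control libraries. Klhl30 (ratio 0.283), the adhesion molecule gene L1cam (0.327) and Mtcl1, a microtubule crosslinking protein (0.355), followed. The collagen-binding integrin gene Itga1 had a ratio of 0.471 and Kank1, of cell-matrix adhesions, one of 0.50. Whrn (0.516), Cadm1 (0.522), Epb41l5 (0.534), Mfap3l (0.536), Mical3, an actin-oxidising enzyme (0.552), and Phldb2, which anchors microtubules at the cell cortex (0.578), were the other members. Phldb2 had the second highest CPM among the members, at 243 to 400 CPM in stimulated and 415 to 655 CPM in control libraries.

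Nuclear genes had the highest median ratio. Their leading gene Mycn, the N-Myc transcription factor of the developing kidney, stood at 1.12, 1.21, 1.47 and 1.37 CPM in KO cells with LPS+IFNγ, against 4.18, 5.17, 6.78 and 6.12 CPM in KO controls. In het cells it stood at 2.86, 0.521, 1.16 and 0.726 CPM with LPS+IFNγ, against 3.72, 5.63, 3.61 and 4.73 CPM in controls. Replicate 1 was the highest of the stimulated het libraries. Cyren, a regulator of DNA end joining, had a ratio of 0.371 and Dnmt3a, a de novo DNA methyltransferase, one of 0.483. Jarid2, a partner of Polycomb repressive complex 2, had a ratio of 0.551, and Hes1, a repressor induced by Notch, one of 0.579. Hes1 was the only member among 17 expressed Notch pathway genes (list median 0.864). Of these 17 genes 7 had a mean ratio of 0.6 or less, against 7.09% of all expressed genes. The other nuclear members, from Zfp329 (0.541) to Med12l (0.60), were Snapc5, H2afj, Wdr5b, Zfp965, Wdr6 and Ier5l. H2afj and Zfp965 belong to families of similar genes and Wdr5b resembles Wdr5, so their counts may share reads with relatives.

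Cpm led the other proteins. It encodes carboxypeptidase M, a membrane enzyme that trims basic residues from peptides, and its symbol is not the unit CPM. Its level was 33.1, 50.5, 47.3 and 22.0 CPM in KO cells with LPS+IFNγ, against 179, 200, 216 and 109 CPM in KO controls. Its level was 10.4, 47.9, 49.8 and 7.73 CPM in het cells with LPS+IFNγ, against 62.1, 190, 165 and 61.1 CPM in het controls. Het replicates 1 and 4 were low in both states. Msrb2, a mitochondrial methionine sulfoxide reductase (0.401), Iqcd (0.442), Sat2 (0.487), the thioredoxin reductase gene Txnrd3 (0.50), Acyp1 (0.518) and Dnajc19, of mitochondrial protein import (0.580), made up the rest. The 6 non-coding or unnamed genes were Gm43672 (0.216), Hoxb5os (0.275), Gm19412 (0.303), Gm47739 (0.463) and 2 IDs without a symbol, ENSMUSG00000120183 (0.458) and ENSMUSG00000120250 (0.496).

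**Figure D2:**
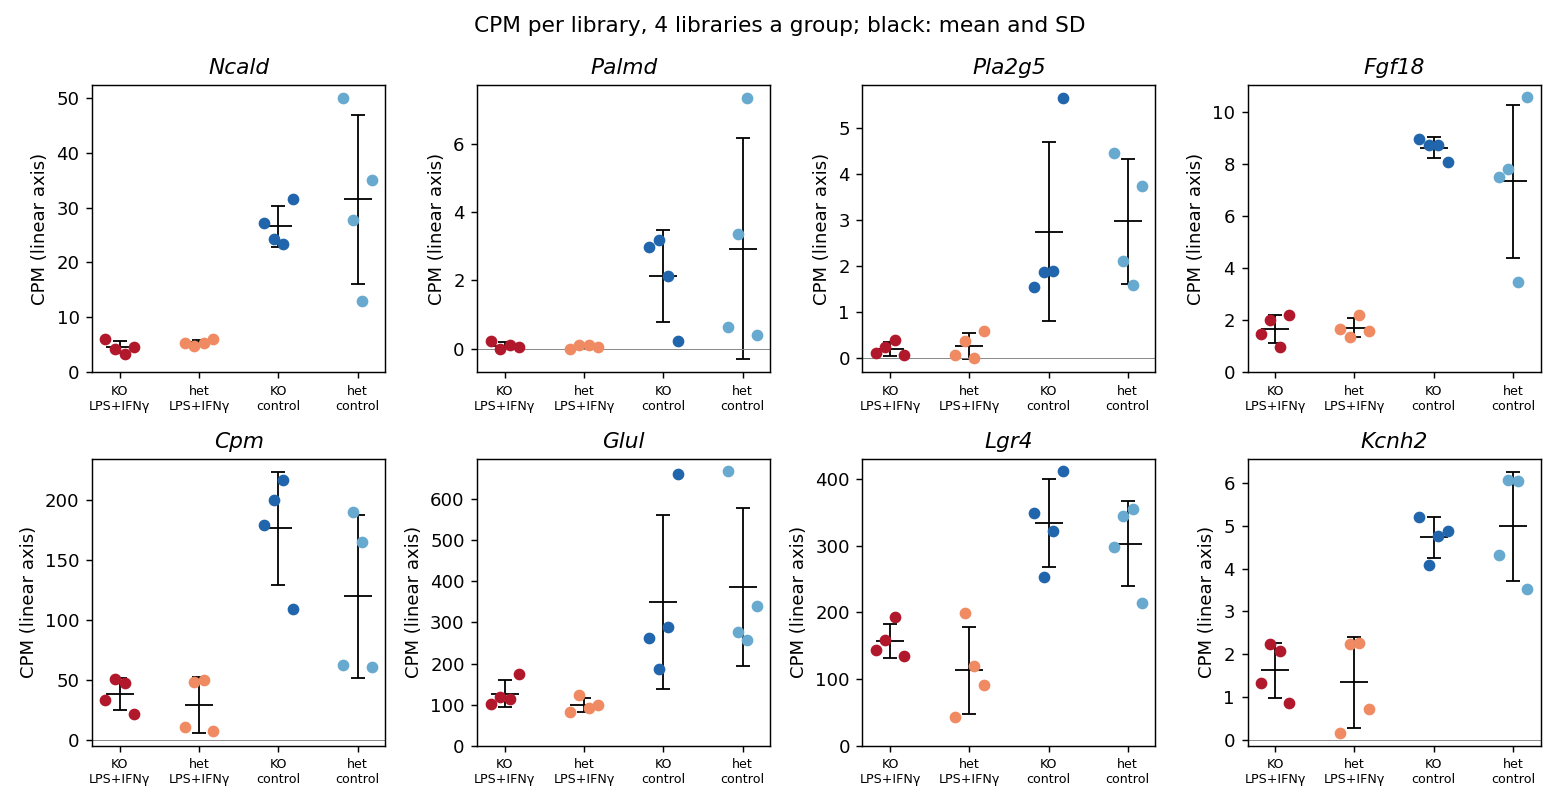
CPM of 8 members in each of the 16 libraries that chose them, on linear axes (points: libraries; black: mean and SD, n = 4 a group). Stimulated groups stand left of controls, and every stimulated library lies below every control, by the rule, with Ncald at 3.27 to 6.08 CPM against 13.0 to 50.0 CPM.

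**Figure D3:**
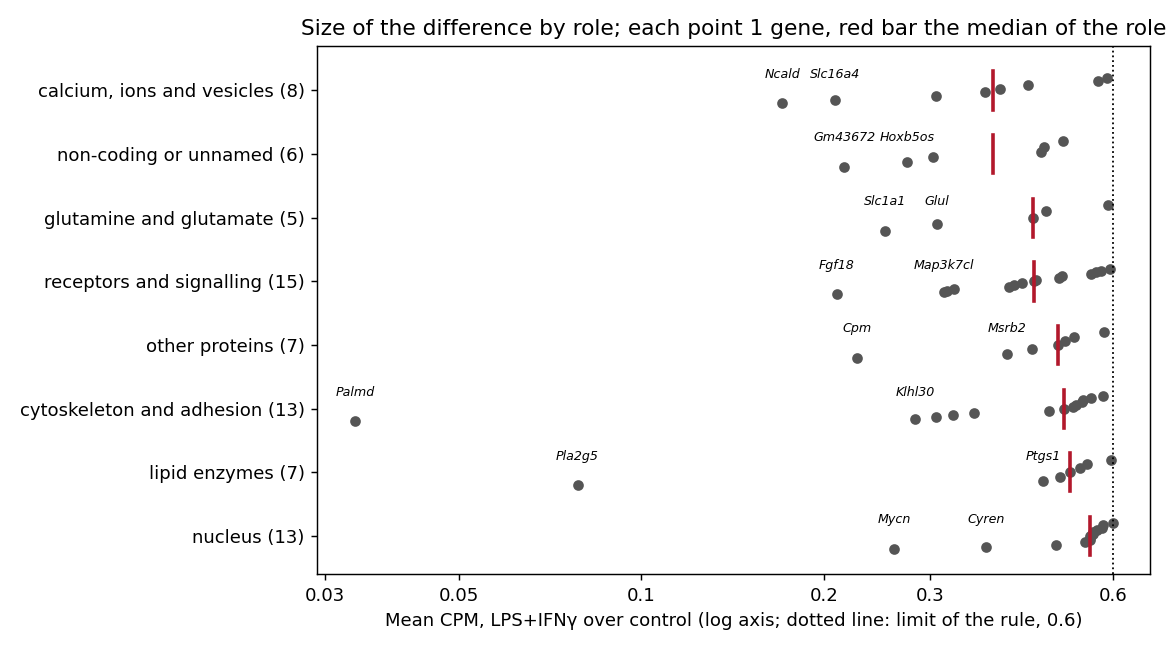
Mean ratio of each member (points, log axis), stimulated over control, by role, with the number of members in brackets and the median as a red bar. Palmd (0.0337) and Pla2g5 (0.0785) stand apart at the left, and the nuclear genes crowd near the limit of 0.6.

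Gene structure did not set the members far from other genes. The median exon length was 4.90 kb for members and 4.57 kb for expressed genes, and the median gene span was 31.5 kb and 24.6 kb. Of 72 members with a gene model 68 (94.4%) were protein coding, against 96.3% of expressed genes with a model. The 72 members lay on 19 chromosomes, with the highest number, 8, on chromosome 3. Expressed genes were not counted by chromosome, so that number has no comparison.

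Within an animal the stimulated library was set against the control library of the same animal for the 6 animals with both states under 1 genotype. Animals 5 and 7 also gave a library of each state, but under different genotypes, and were not used here. The median ratio of the members was 0.502, 0.493 and 0.390 in KO animals 3, 6 and 10, and 0.292, 0.522 and 0.396 in het animals 1, 2 and 9. The median over all expressed genes in those animals was 0.938, 0.959 and 0.892 in KO and 0.843, 0.956 and 0.895 in het. Animal 1 had the lowest ratio for members and for all genes. These ratios are of CPM and depend on the scaling. With library sizes scaled by TMM, the median of the mean ratios over the 16 libraries was 0.986 for expressed genes and 0.512 for the members. Of the 74 members, 51 (animal 2) to 65 (animal 10) had a ratio of 0.6 or less in a given animal. The rule favours high counts here, as it chose on the mean ratio of these libraries.

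Marker sums of several cell types were also lower with LPS+IFNγ within animals, those of contractile cells and podocytes most. Of 10 expressed smooth muscle and myofibroblast markers 8 had a mean ratio of 0.6 or less, and their sum had a ratio of 0.372 to 0.637, below 1 in 6 of 6 animals. Between states the sums overlapped, at 427 to 10353 CPM in stimulated and 787 to 14504 CPM in control libraries. The sum of 7 podocyte markers had a within-animal ratio of 0.422 to 0.621, at 97.9 to 312 CPM in stimulated and 226 to 583 CPM in control libraries. The sum of 16 proximal tubule markers had a ratio of 0.470 to 0.825 and that of 12 epithelial markers one of 0.780 to 1.22. The fibroblast sum had a ratio of 0.516 to 0.934 and ranged from 34.6 to 12457 CPM in stimulated and from 66.9 to 15242 CPM in control libraries, with both libraries of animal 7 highest. Endothelial markers had a ratio of 0.536 to 0.997, below 1 in 6 of 6 animals, and summed to 15.4 to 78.1 CPM in stimulated and 21.3 to 103 CPM in control libraries. Cell cycle genes had a ratio of 0.641 to 1.60, below 1 in 1 of 6 animals, and summed to 299 to 1098 CPM in stimulated and 326 to 880 CPM in control libraries. The leukocyte sum had a ratio of 0.671 to 1.62, and that of the loop of Henle to the collecting duct one of 0.556 to 4.44. Leukocyte markers summed to 37.0 to 388 CPM in stimulated and 28.8 to 439 CPM in control libraries, and only Cd3e was at 0. Of expressed markers, 4 of 6 leukocyte, 4 of 6 proximal tubule and 3 of 5 podocyte ones had a mean ratio of 0.6 or less. So did 2 of 6 fibroblast, 1 of 3 endothelial, 0 of 12 epithelial and 0 of 16 cell cycle markers. For the loop of Henle to the collecting duct 0 of 2 did. Among all 12221 expressed genes 866 (7.09%) had a mean ratio of 0.6 or less. The part of cell composition in the members' difference was not tested.

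The 4 libraries that the rule did not use gave the same measure in other samples, 1 library a group, so only values are given. In animal 8 (KO), 72 of 74 members were higher in the library labelled LPS+IFNγ than in the one labelled control, against 55.7% of 12193 expressed genes. There 26 members were at least 1.5-fold higher (4.44% of expressed genes) and 0 at least 1.5-fold lower (4.46%). In animal 4 (het), 69 of 74 members were higher in the library labelled LPS+IFNγ, against 49.1% of 12185 expressed genes. There 23 members were at least 1.5-fold higher (3.83%) and 1, Slc1a1, at least 1.5-fold lower (4.24%). The median ratio of the members was 1.40 in animal 8 and 1.32 in animal 4, against 1.02 and 0.997 for expressed genes.

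These pairs ran opposite to their labels for most members, as they did for the interferon-gamma list. Ncald stood at 21.9 CPM in the library labelled KO LPS+IFNγ and at 10.2 CPM in the one labelled KO control. It stood at 18.6 CPM in the library labelled het LPS+IFNγ and at 10.0 CPM in the one labelled het control. Both libraries labelled control thus lay between the 8 stimulated libraries (3.27 to 6.08 CPM) and the 8 controls (13.0 to 50.0 CPM). Cpm showed 142 and 70.9 CPM in the libraries labelled KO LPS+IFNγ and KO control of animal 8. Slc1a1 was low in all 4 libraries, at 0.584 and 0.555 CPM in animal 8 and 0.372 and 0.745 CPM in animal 4, labelled LPS+IFNγ and labelled control in turn.

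Over all 74 members, the median level relative to the control mean was 0.770 in the library labelled KO LPS+IFNγ and 0.533 in the one labelled KO control. It was 0.957 in the library labelled het LPS+IFNγ and 0.733 in the one labelled het control. The 8 stimulated libraries stood at 0.310 to 0.498 and the 8 controls at 0.879 to 1.14. By this median both libraries labelled control and the library labelled KO LPS+IFNγ lay between those ranges, and the library labelled het LPS+IFNγ lay within the range of the controls. Member by member, the library labelled KO LPS+IFNγ had 18 members at or below the highest stimulated value, 14 between the states and 42 at or above the lowest control. The library labelled KO control had 51, 11 and 12 of them in the same order. The library labelled het LPS+IFNγ had 3, 6 and 65, and the one labelled het control 17, 24 and 33. Most members in each library thus lay outside the gap between the states.

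**Figure D4:**
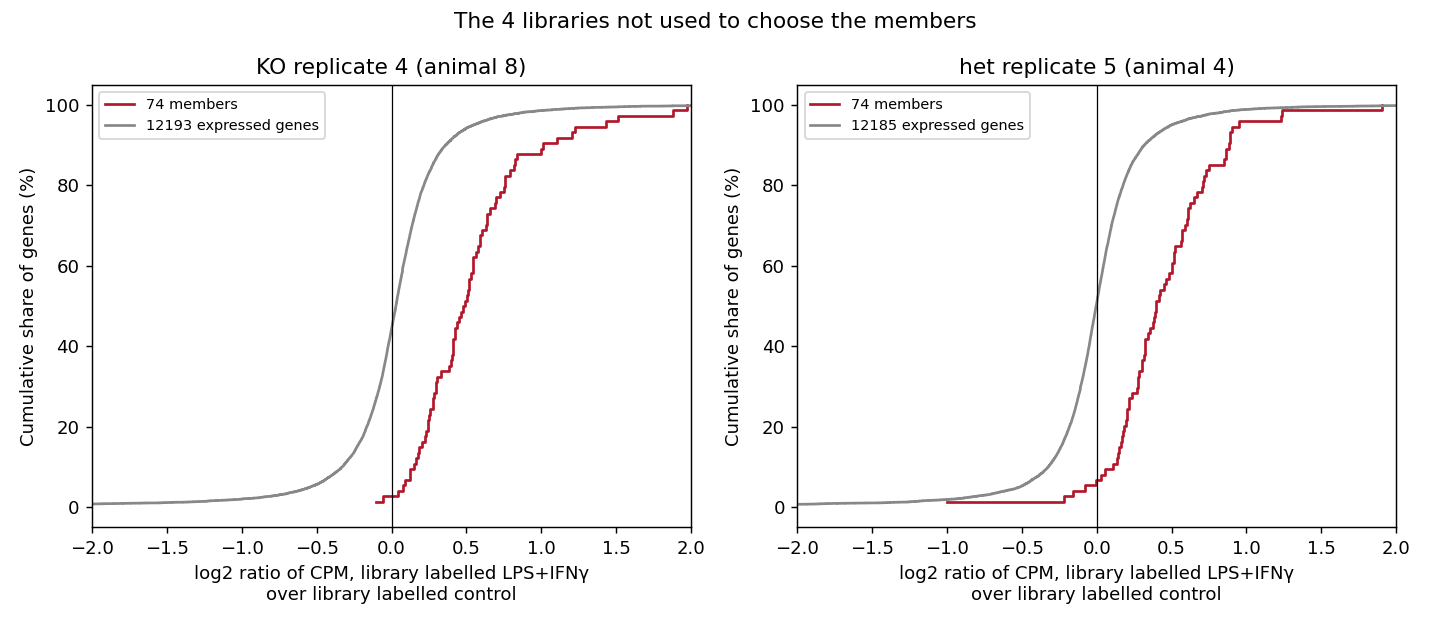
Cumulative share of genes by the log2 ratio of CPM, library labelled LPS+IFNγ over library labelled control, in KO replicate 4 (animal 8) and het replicate 5 (animal 4). The axis ends at 2 in either direction, and the 74 members (red) lie to the right of all expressed genes (grey), with 72 and 69 of 74 above 0.

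The genotypes were compared next. The rule did not choose on the difference between KO and het, but it is not neutral to it. It asked every stimulated library of KO and het cells to lie below every control of both. Genes lowered in KO or in het cells alone were thus left out, which limits how far the members' responses can differ. The test was edgeR's quasi-likelihood test over 14630 genes with Benjamini-Hochberg adjustment and 4 libraries a group. In controls 0 members differed between KO and het at an adjusted p under 0.05, as did 0% of all genes tested. At an unadjusted p under 0.05, 5 of 74 members differed in controls (5.29% of all genes), and the lowest adjusted p was 0.892. In stimulated cells 0 members were called (0% of all genes), 2 passed unadjusted (5.38%), and the lowest adjusted p was 0.748. For the difference of the responses, KO minus het, 0 were called (0%), 2 passed unadjusted (1.53%) and the lowest adjusted p was 1. The members' shares at an unadjusted p were near those of all genes.

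Means of KO and het cells were close for most members. KO over het mean CPM ran from 0.553 to 1.5 in controls (median 0.998) and from 0.695 to 1.43 with LPS+IFNγ (median 1.11). In controls 43 of 74 members had a log2 difference above 0 (49.4% of all genes), and with LPS+IFNγ 56 of 74 did (49.7%). That second count fell to 39 of 74 without het LPS+IFNγ replicate 1, the library with the lowest median level of the members (0.310). The ratio of stimulated to control means had a median of 0.497 in KO (0.0457 to 0.691) and 0.437 in het cells (0.0250 to 0.688), and was lower in KO for 24 of 74. Between libraries of a group the median coefficient of variation was 21.2% in KO with LPS+IFNγ, 19.6% in KO controls, 28.6% in het with LPS+IFNγ and 21.2% in het controls.

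**Figure D5:**
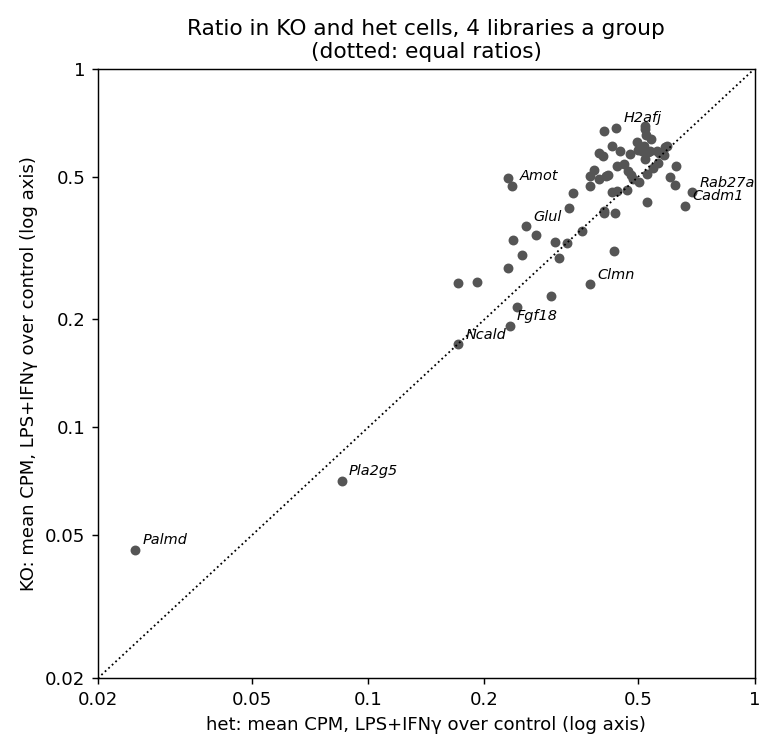
Ratio of mean CPM, stimulated over control, in KO cells (vertical) and het cells (horizontal), both on log axes, each point 1 of the 74 members. Points lie on both sides of the line of equal ratios, with 24 below it, among them Cadm1, and Amot farthest above it among the labelled genes.

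Cadm1 and Galc were among the members with the lowest genotype p-values in controls. Galc stood at 59.7, 59.3, 54.3 and 66.5 CPM in KO controls, against 112, 54.0, 65.4 and 147 CPM in het controls, and the groups overlapped. The 2 high het controls, replicates 1 and 4, were also highest for Amot (267 and 397 CPM). Proximal tubule marker sums were 43.3 to 167 CPM in KO controls, against 603 and 560 CPM in het control replicates 1 and 4 and 62.2 and 87.8 CPM in the other het controls. The part of that marker difference in these values was not tested. Galc had a log2 difference of −0.56 ± 0.24 and Cadm1, a cell adhesion molecule of the immunoglobulin family, one of 0.44 ± 0.17 (SE, n = 4, both edgeR adjusted p = 0.892).

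With LPS+IFNγ the lowest p-values were those of Cerk, H2afj and Cdk20. Cerk stood at 22.6, 25.3, 31.4 and 25.7 CPM in KO cells, against 15.1, 21.8, 21.4 and 16.6 CPM in het cells, and the groups did not overlap. Its log2 difference was 0.48 ± 0.19 (SE, n = 4, edgeR adjusted p = 0.748). H2afj had a log2 difference of 0.36 ± 0.16 and Cdk20, a cyclin-dependent kinase, one of 0.47 ± 0.24 (both edgeR adjusted p = 0.748).

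For the response, Cadm1, H2afj and Amot had the lowest p-values. Cadm1 stood at 76.6, 61.2, 45.1 and 60.2 CPM in KO cells with LPS+IFNγ, against 153, 131, 125 and 176 CPM in KO controls. It stood at 90.3, 58.8, 73.8 and 74.2 CPM in het cells with LPS+IFNγ, against 110, 123, 92.9 and 123 CPM in het controls. The log2 fold change of Cadm1 was −1.20 ± 0.17 in KO and −0.47 ± 0.17 in het cells, a difference of −0.73 ± 0.23 (SE, edgeR adjusted p = 1). H2afj went the other way, at −0.48 ± 0.16 in KO and −1.04 ± 0.16 in het cells, a difference of 0.56 ± 0.23 (edgeR adjusted p = 1). Amot stood at −1.03 ± 0.33 in KO and −1.93 ± 0.33 in het cells, a difference of 0.90 ± 0.46 (edgeR adjusted p = 1).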

How the data were processed

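RNA from 20 cultures of primary mouse tubular cells was sequenced from total RNA with a directional kit, per the labels' protocols. The deposited table holds estimated counts per gene as whole numbers for 55891 Ensembl IDs, and every per-sample column was used. Per the submitters' processing notes, the tools were Salmon 1.10.2, FastQC 0.11.9, DESeq2 1.45.3 and R 4.4.1, with the build GRCm39. The sources used here do not give the role of each tool, the strand setting or how transcripts were summed to genes, so overlapping genes cannot be separated with certainty. GENCODE M21, which is built on GRCm38 and not on that build, was used for names, lengths and gene order, and matched 51425 IDs (92.0%) holding 98.8% of the counts.

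CPM was the count over the column total times 1000000. Groups and replicate numbers were taken from titles. Genotype tests used R 4.3.3 and edgeR 4.0.16 (TMM, filterByExpr, robust quasi-likelihood F test) on rounded counts, which rounding did not change, from 16 libraries in 1 model of 4 group means without a block, and were adjusted over 14630 genes. The SE of a log2 fold change is its size over the root of the F value. The procedure was run on simulated data for KO against het in controls only, with independent libraries and no stimulus effect. That simulation does not cover the pairing by animal or the other comparisons. DESeq2 1.42.0 and limma 3.58.1 (voom), other scalings, filters, thresholds and libraries were alternatives. The control and stimulated libraries of an animal deviated together (correlations of 0.541 to 0.725 in 6 pairs), so the animal pairs the states. The library totals limit precision by counting error at least. No molecular identifiers are named, so the counts stand for reads and not for molecules.

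The members, the lists and the tests were chosen with earlier results of these data known. The rule for named genes took Ncald, the 12 lowest ratios, the 6 highest control levels, up to 4 members of each list, the 3 lowest p-values of each genotype comparison and the genes beside the limits. The other members are named to account for the group, except 1 that is not reported here.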

Additional observations from a re-analysis of the deposited data

Results flagged for a closer look

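Within each group of 4 libraries the highest or lowest value of a described member was set against the other 3, by Dixon's gap over range with a critical value of 0.829. Of 116 groups 5 passed, and chance passes about 1 in 20. Pla2g5 was high in KO control replicate 5, at 5.66 CPM against 1.55 to 1.90 CPM in the other KO controls. Clmn was high in the same library, at 254 CPM against 210 to 214 CPM. Slc16a4 was high in KO LPS+IFNγ replicate 3, at 1.09 CPM against 0.572 to 0.614 CPM. Klhl30 was low in het LPS+IFNγ replicate 4, at 0.396 CPM against 1.47 to 1.60 CPM. Oat was high in het control replicate 1, at 450 CPM against 200 to 240 CPM.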

How the results depend on the processing

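Of the 74 members, 45 had a ratio of 0.5 or less, 0 genes met the rule with all 20 libraries as labelled, and 166 met it with animals 5 and 7 left out. Without 1 of the 16 libraries 76 to 105 genes met it. The median log2 size of the members was −1.05 to −0.91 without 1 library. With the animal as a block it was −1.06 and with the replicate number −0.99. The left-out pairs had 8 (KO) and 3 (het) members at least 2-fold higher in the library labelled LPS+IFNγ, against 1.38% and 1.1% of expressed genes. At least 2-fold lower there were 0 (KO) and 1 (het) members. No gene was called in KO against het in controls, with LPS+IFNγ or in the difference of the responses under any alternative run: the counts were 0 to 0 without 1 library, 0 with the replicate number as a block, and 0 by DESeq2 and limma-voom. Unadjusted, edgeR passed 774, 787 and 224 genes in these comparisons, DESeq2 1012, 1077 and 314, and limma-voom 540, 565 and 203. With animals 5 and 7 left out, 90 genes passed unadjusted for the difference of the responses, and 0 were called. With the animal as a block on those libraries, 429 passed and 0 were called. The replicate number links libraries of different animals and correlated at −0.109 to 0.496 between KO and het, so the samples share only a number. The library totals limit genes such as Palmd and Pla2g5, which had at most 9 counts in a stimulated library. The counts of members higher in KO without 1 library, 38 to 49 in controls and 39 to 56 with LPS+IFNγ, were added after seeing the data.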
